A study of Mus musculus with 10 samples.

Results

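Integrins and laminins were measured as transcripts in the mouse secondary palate at E14.5, the embryonic day label of all samples, around the time the palatal shelves fuse. The members are all genes for an integrin alpha or beta chain or a laminin alpha, beta or gamma chain that the platform annotation names alone on a probe set, apart from Itga5, Itga8, Itgam, Itgav, Itgb6 and Itgb8, which the rule leaves out. They were chosen by gene name, though with earlier results of these data known. The rule found 29 of the 18194 genes on the array, 19 integrin and 10 laminin chains, through 61 of 34958 probe sets. Each gene was read from its brightest probe set over the 10 arrays. Itga11 and Itgad were not analysed here.

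The mutant group had 5 arrays from Tgfbr2fl/fl;Wnt1-Cre embryos and the control group 5 arrays from Tgfbr2fl/fl embryos. By the genotype labels both groups have floxed Tgfbr2, which encodes a receptor for TGF-beta, and differ by the Cre transgene, while the sample titles call the controls wild type. The strain label is C57B6 for all 10 samples. Wnt1-Cre deletes in the neural crest lineage, which gives rise to palatal mesenchyme. Epithelium, endothelium, blood and skeletal muscle cells of the palate come from other lineages and keep the receptor. The stated question of the series is which genes TGF-beta regulates during palate formation in a mouse model of cleft palate. Nothing in the labels states that the numbered samples are different embryos. The p-values therefore cover only sample-to-sample spread, which may be technical in part. Deposited values are log2 expression values, made with the RMA method and given to 1 decimal, with array medians of 6.4 or 6.5.

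Integrins are receptors made of 1 alpha and 1 beta chain that span the cell membrane and couple the matrix outside to the actin or keratin cytoskeleton inside. Laminins are cross-shaped trimers of an alpha, a beta and a gamma chain that polymerise into the sheet of every basement membrane. In the palate, the epithelium rests on such a sheet through integrin hemidesmosomes, the mesenchyme lies beneath it, and the sheet is broken down where the shelves fuse. Several integrin and laminin genes are known targets of TGF-beta in cultured cells.

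Control replicate 1 was unlike the remaining 9 arrays and touches many of the values below. Its correlation with the others over all genes was 0.985 to 0.989, against 0.989 to 0.997 among the other 9. It lay alone at the low end of the 10 arrays for 13 members and alone at the high end for 6. That is 65.5% of members, against 36.7% of all genes, and the next array, mutant replicate 3, was alone at an end for 5 members. Tgfbr2 itself read 10.7 to 10.8 in mutant and 10.5 to 10.8 in control arrays, which does not check the deletion because no source used here says whether its probe set lies within the floxed part. Eif2s3y, a Y-linked gene, was high in 6 arrays (9.0 to 9.3 in control replicates 1 and 4 and mutant replicates 1 to 4). It was lower in the other 4, at 3.2 to 3.3 in control replicates 2, 3 and 5 and 5.1 in mutant replicate 5. So neither group was made only of repeat arrays of 1 sample, though arrays with like values may still be repeats. The groups were also unbalanced in this gene.

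Most chains were at similar levels in mutant and control palate. By limma, 1 of the 29 members passed an adjusted p under 0.05, Itga1, and it was lower in the mutant. Over all 18194 genes 8.26% passed, so the members' share, 3.45%, was no larger than the background. An unadjusted p under 0.05 was found for 5 members, 17.2%, against 25.2% of all genes. Without control replicate 1 the members that passed were Itga1, Itga4 and Lama1, 3 of 29 against a background of 9.88%, and all 3 were lower, as were 6.08% of all genes, while 3.8% were higher. The median log2 difference, mutant minus control, was -0.02 over the members and 0.00 over all genes. No member differed by 1.5-fold or more, and differences ran from -0.48 (Itga1) to 0.44 (Itga10).

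The arrays of the groups overlapped for every member, while 6.75% of all genes separated them. The 95% confidence intervals show which changes the data leave room for. Of the 28 uncalled members, 27 had an interval inside a 1.5-fold change in either direction, 0.58 on the log2 scale, and the exception was Itga10. Over all uncalled genes 94.1% had such an interval. Without control replicate 1 the intervals of all 26 uncalled members lay inside 1.5-fold. Changes smaller than that lie within these intervals, which reached 0.14 to 0.49 to either side of the estimate with all arrays. For 10 members the mean was below the array median of 6.5, where the signal lies nearer to background and a log2 difference can understate a change.

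**Figure D1:**
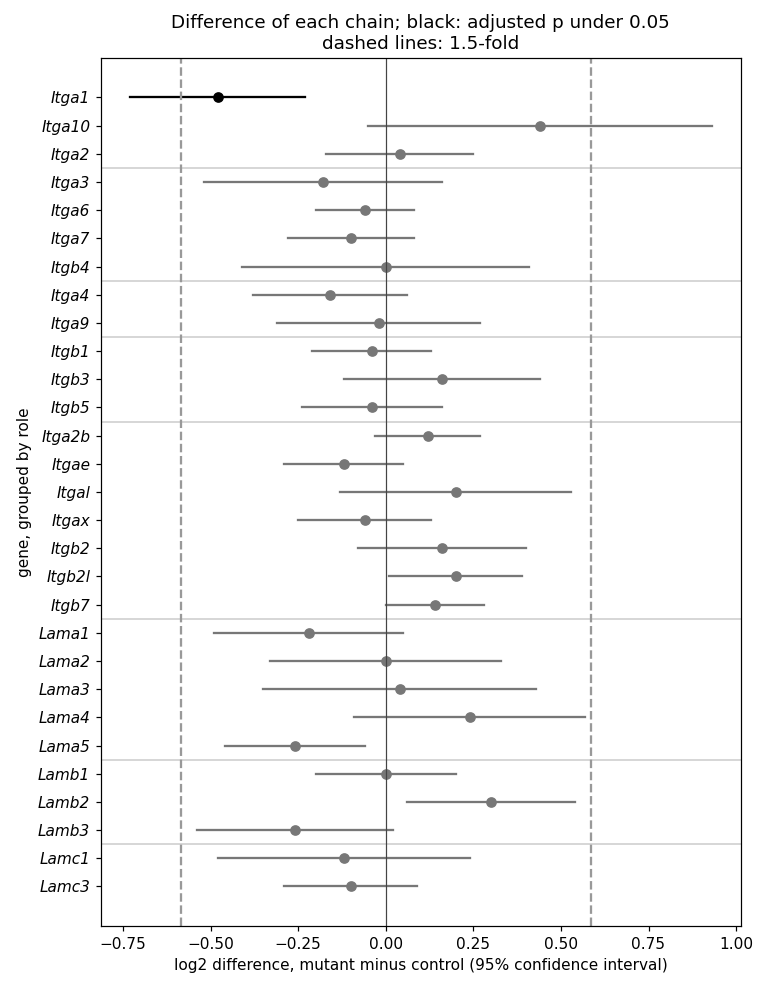
Log2 difference of each of the 29 chains, mutant minus control (point), with its 95% confidence interval (line), grouped by role from collagen receptors at the top to laminin gamma chains at the bottom. Itga1, in black, is the only chain with an adjusted p under 0.05, and the interval of Itga10 is the only other that crosses a dashed line at 1.5-fold.

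The promoters are printed for the chains that the results turn on: Itga1, the called member, and Lama5 and Lamb2, the laminin chains with the smallest p, whose differences had opposite signs. Each is the 250 bases before the RefSeq gene start in build GRCm38.p6, on the gene's own strand. The windows are chr13:115101965-115102214 on the minus strand for Itga1, chr2:180225860-180226109 on the minus strand for Lama5 and chr9:108479612-108479861 on the plus strand for Lamb2. Capitals mark the core of the SMAD-binding element, CAGAC on one strand and GTCTG on the other, the letters that the DNA-binding SMAD proteins of the TGF-beta pathway are known to prefer.
Itga1: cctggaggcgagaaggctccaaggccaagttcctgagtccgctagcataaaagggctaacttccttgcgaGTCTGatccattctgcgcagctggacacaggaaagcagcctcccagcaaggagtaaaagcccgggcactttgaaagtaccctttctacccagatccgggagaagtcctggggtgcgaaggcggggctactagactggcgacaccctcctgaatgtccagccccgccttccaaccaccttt
Lama5: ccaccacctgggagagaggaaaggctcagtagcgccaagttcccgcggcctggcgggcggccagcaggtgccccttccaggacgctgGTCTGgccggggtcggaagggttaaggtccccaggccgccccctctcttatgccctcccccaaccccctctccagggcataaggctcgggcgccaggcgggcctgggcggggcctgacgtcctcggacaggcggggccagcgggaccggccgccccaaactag
Lamb2: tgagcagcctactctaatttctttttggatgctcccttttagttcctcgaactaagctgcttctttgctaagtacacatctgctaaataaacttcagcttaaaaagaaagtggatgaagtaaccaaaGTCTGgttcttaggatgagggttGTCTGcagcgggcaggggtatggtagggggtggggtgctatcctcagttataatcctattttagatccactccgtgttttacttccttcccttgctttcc
The core occurred 1 time before Itga1, beginning 180 bases before the start, 1 time before Lama5, at 163 bases, and 2 times before Lamb2, at 123 and 100 bases. It was present in the same window of 42.2% of 32851 RefSeq promoters and in 14 of the 19 promoters of the 17 members found in that table. So the called and the uncalled chains shown here both hold it, and a match is a description of letters, not of a bound site. The GC box GGGCGG, searched on both strands, occurred 4 times before Lama5 and not before Itga1 or Lamb2, and was in 32.7% of all promoters and 7 of the 19. TATAAA, also searched on both strands, was in 12.4% of all promoters and in none of the 19. The SMAD core and the GC box can share the letter at which one ends and the other begins, and TATAAA shares no end with either. GC content of the windows was 57.6% for Itga1, 72.4% for Lama5 and 43.6% for Lamb2.

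Among the collagen receptors, Itga1 fell. It encodes the alpha chain that pairs with the Itgb1 product to bind collagen IV and other collagens, and is known from smooth muscle, pericytes and endothelium. Log2 values in mutant replicates 1 to 5 were 6.1, 6.5, 6.5, 6.3 and 6.5, and in control replicates 1 to 5 they were 6.9, 7.1, 7.0, 6.8 and 6.5. All mutant arrays were at or below 6.5, and 4 of 5 controls were above it, with control replicate 5 level with the highest mutants. The means were 6.38 ± 0.18 and 6.86 ± 0.23 (SD, n = 5 each), a 1.39-fold decrease (log2 difference -0.48, SE 0.12, 95% interval -0.73 to -0.23, limma adjusted p = 0.0296). The gene's other probe set, dimmer at 4.58 against 4.80, differed in the same direction by -0.22 (SE 0.08) but was not called when all probe sets were tested together (adjusted p = 0.142).

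The Itga1 call did not survive every choice. It was lost without mutant replicates 1, 3 or 4 (adjusted p = 0.0648, 0.0509 and 0.0624), without control replicates 2 or 3 (0.0552 and 0.0705), and with Eif2s3y as a covariate (0.0857), while the difference stayed between -0.57 and -0.41 with any 1 array left out and was -0.45 with the covariate. Within the arrays with high Eif2s3y, the mutants read 6.1 to 6.5 and the controls 6.9 and 6.8. Within those with lower Eif2s3y, the mutant read 6.5 and the controls 7.1, 7.0 and 6.5. That mutant's Eif2s3y, at 5.1, was above the 3.2 to 3.3 of these controls.

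Some markers of cells known to carry this receptor were called, against 2.90% higher and 5.36% lower over all genes. Of 8 smooth muscle and pericyte markers, Acta2, Myh11 and Rgs5 were lower and Mylk higher. With each array left out in turn, Myh11 and Mylk stayed called, Acta2 was lost without mutant replicates 1, 2 or 3 or control replicates 3 or 5, and Rgs5 was lost without mutant replicates 1 to 4 or control replicate 5. The mean log2 level of the 8 was 8.43 to 8.54 in mutant and 8.55 to 8.65 in control arrays, and Cnn1 stayed under 5 on all arrays. Of 10 blood vessel markers, Erg and Cldn5 were lower and none higher, with a median difference of -0.03 over the list, and the mean levels overlapped, at 7.98 to 8.23 in mutant and 7.89 to 8.36 in control arrays. Cldn5 stayed called with any 1 array left out, whereas Erg was lost without mutant replicates 1 to 4 or control replicates 3 to 5. Kdr was also lower without control replicate 1 (-0.22, adjusted p = 0.0276). The part of these cells in the Itga1 result was not tested. In whole palate, fewer cells of a type and less RNA per cell cannot be told apart.

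Itga10 and Itga2, the other collagen receptor chains measured, were not called. Itga10, whose product is the collagen II receptor of cartilage, read 8.4, 7.8, 8.1, 8.2 and 8.0 in mutant replicates 1 to 5 and 6.7, 7.7, 8.0, 7.9 and 8.0 in control replicates 1 to 5. The groups overlapped at 7.8 to 8.0, and control replicate 1 was 1.0 below the next lowest array. The difference was 0.44 (interval -0.05 to 0.93, adjusted p = 0.245) with all arrays and 0.20 (-0.05 to 0.45, adjusted p = 0.292) without control replicate 1. None of 8 cartilage markers was called by limma, with 3 at an unadjusted p under 0.05, and their mean level was also lowest in control replicate 1, at 6.84 against 6.94 to 7.35 in the other 9. Itga2, known from epithelium and platelets, differed by 0.04 (interval -0.17 to 0.25).

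**Figure D2:**
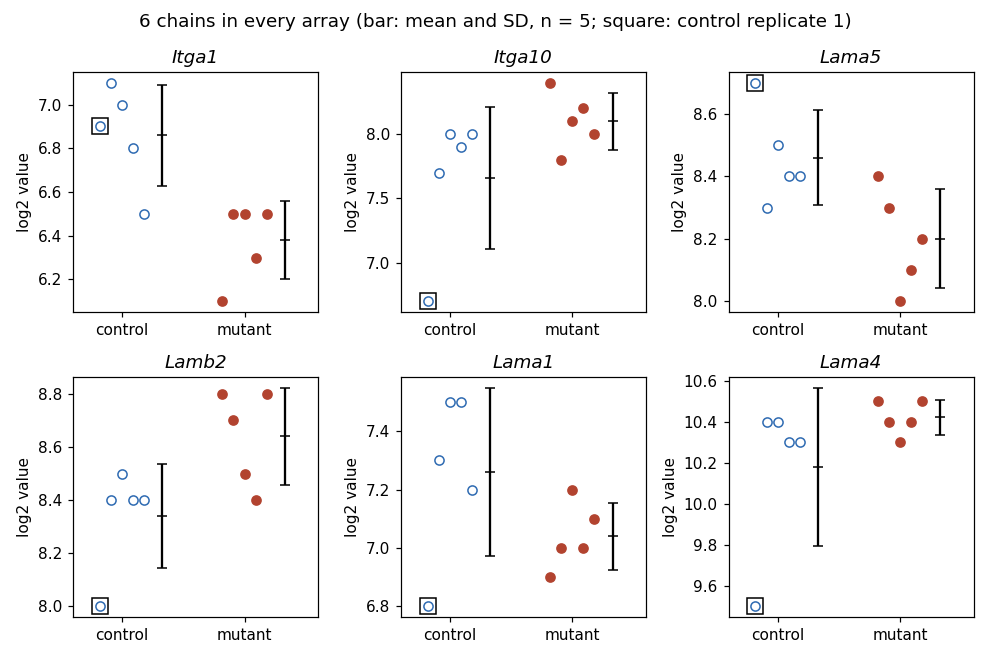
Log2 values of 6 chains in every array, controls as open and mutants as filled circles, with the mean and SD of each group (bar, n = 5); a square marks control replicate 1. For Itga1 the square lies among the controls, whereas for Itga10, Lamb2, Lama1 and Lama4 it is the lowest of all 10 arrays and for Lama5 the highest.

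None of the 4 integrin chains that bind laminin was called, and none had an unadjusted p under 0.05 at its brightest probe set. Itga6 encodes the alpha chain of the hemidesmosome receptor. Its values were 10.3, 10.3, 10.3, 10.3 and 10.4 in mutant and 10.4, 10.4, 10.4, 10.5 and 10.2 in control replicates 1 to 5. The arrays lay within 0.3 of each other, and the difference was -0.06 (SE 0.06, interval -0.20 to 0.08). Itgb4, its partner in the hemidesmosome, whose long tail links to keratin through plectin, read 8.6, 8.5, 8.1, 7.9 and 8.1 in mutants and 8.9, 8.2, 7.9, 8.0 and 8.2 in controls. Its spread within each group was wide, and the difference was 0.00 (interval -0.41 to 0.41), or 0.16 (-0.14 to 0.47) without control replicate 1.

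Itga3, the alpha chain of another epithelial laminin receptor, read 7.9 to 8.2 in mutants and 8.0 to 8.2 in controls 2 to 5, against 8.9 in control replicate 1. Its difference was -0.18 (interval -0.52 to 0.16) with that array and -0.02 (-0.21 to 0.17) without it. The dimmer probe sets of Itga3 differed by -0.20 and 0.12. By limma over all probe sets the first had an unadjusted p of 0.0169 but was not called (adjusted p = 0.133). Itga7 encodes the alpha chain of the main laminin receptor of skeletal muscle. It stood at 5.6, 5.9, 5.5, 5.9 and 5.8 in mutants and 5.8, 5.8, 5.8, 5.9 and 5.9 in controls, below the array medians throughout, with a difference of -0.10 (interval -0.28 to 0.08). By contrast 8 of 12 skeletal muscle markers were lower and none higher, against 5.36% lower over all genes, with a median difference of -1.80 and a mean level of 5.78 to 7.96 in mutant and 7.72 to 9.17 in control arrays. The count was 3 to 5 without control replicates 2, 3 or 5 or mutant replicates 1, 2, 3 or 5, and Myf5, Actn2 and Tnnt1 stayed called with any 1 array left out.

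Integrin chains for fibronectin, VCAM-1 and tenascin were not called. Itga9, whose product binds tenascin and nephronectin-like ligands, read 8.4, 8.8, 8.3, 8.2 and 8.4 in mutants and 8.0, 8.5, 8.6, 8.5 and 8.6 in controls, a difference of -0.02 (SE 0.13, interval -0.31 to 0.27). Its lowest value was that of control replicate 1. Itga4, whose product binds fibronectin and VCAM-1, read 7.3, 7.4, 7.3, 7.5 and 7.5 in mutants and 7.2, 7.6, 7.6, 7.6 and 7.8 in controls. Control replicate 1 was lower than every other array, and the other 4 controls were above all mutants. The difference was -0.16 (adjusted p = 0.345) with that array and -0.25 (interval -0.40 to -0.10, adjusted p = 0.0457) without it. The 4 dimmer probe sets of Itga4 differed by -0.06 to 0.12.

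None of the beta chains that many alpha chains share was called. Itgb1, the partner of all the collagen receptors and of most laminin receptors, read 10.7, 10.6, 10.6, 10.9 and 10.8 in mutants and 10.6, 10.7, 10.9, 10.8 and 10.8 in controls. The groups covered nearly the same range, with a difference of -0.04 (SE 0.08, interval -0.21 to 0.13). Itgb5, which pairs with the alpha V chain, read 10.9, 11.1, 10.9, 10.8 and 11 in mutants and 10.7, 11.1, 11.1, 11.1 and 10.9 in controls (difference -0.04, SE 0.09, interval -0.24 to 0.16). Its 3 other probe sets differed by -0.04 to 0.04. Itgb3, the beta chain of the platelet fibrinogen receptor and of a vitronectin receptor, differed by 0.16 (interval -0.12 to 0.44) at values of 5.6 to 6.3.

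None of the 7 chains of leukocyte and platelet integrins was called. Itga2b, the platelet alpha chain and the brightest of them, read 7.5, 7.6, 7.5, 7.5 and 7.5 in mutants and 7.5, 7.3, 7.2, 7.5 and 7.5 in controls (difference 0.12, SE 0.07, interval -0.03 to 0.27). Itgal, Itgb2, Itgax, Itgae, Itgb7 and Itgb2l, the leukocyte chains, were dimmer, with values of 4.2 to 6.4, and their differences ran from -0.12 for Itgae to 0.20 for Itgal and Itgb2l. Itgb2l and Itgb7 had an unadjusted p under 0.05 (differences 0.20 and 0.14, adjusted p = 0.179 and 0.191). Itgal passed without control replicate 2, its highest array, at a difference of 0.35 (adjusted p = 0.0487). With all arrays the dimmer probe set of Itgal differed by -0.02 and those of Itgb2l by 0.22 and 0.02, and none of these was called.

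Markers of the cells that carry these receptors were called in 1 of 12 and 2 of 7 genes, 8.33% and 28.6%, against 8.26% over all genes. Of 12 leukocyte and macrophage markers, Laptm5 was higher, and the mean level was 7.72 to 7.92 in mutant and 7.59 to 8.08 in control arrays. Of 7 megakaryocyte and platelet markers, Ppbp was higher by 1.48 and Pf4 lower by a log2 difference of -0.62, and Clec1b stayed under 5 on all arrays. Pf4 stayed called with any 1 array left out. The Laptm5 call was kept only without control replicate 2, and the Ppbp call only without that array or mutant replicate 1. Without control replicate 1 the adjusted p was 0.0639 for Laptm5 and 0.0741 for Ppbp.

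**Figure D3:**
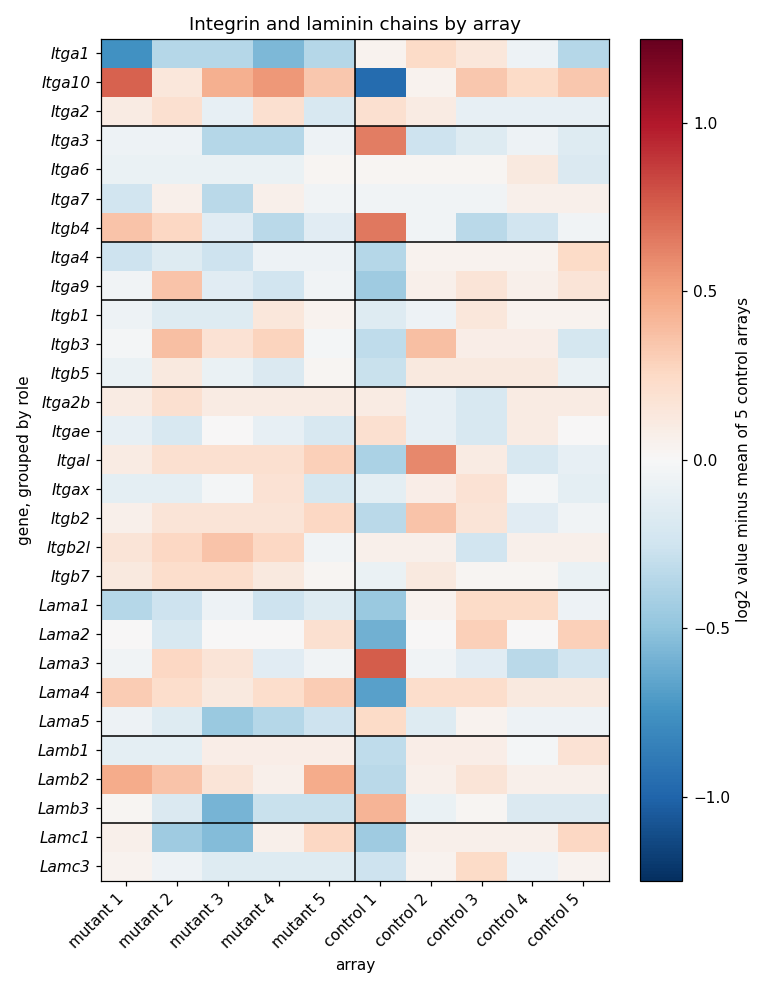
Log2 value of each chain in each array minus the mean of the 5 control arrays (colour; red higher, blue lower), genes in rows by role and arrays in columns. Within the column of control replicate 1, the deepest blue cells are those of Itga10, Lama4 and Lama2 and the deepest red those of Lama3, Itga3 and Itgb4. Itga1 is blue in all 5 mutant columns, as in control replicate 5 and, faintly, control replicate 4.

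None of the 10 laminin chains was called by limma, and 2 of them, Lama5 and Lamb2, had an unadjusted p under 0.05 against 25.2% of all genes. Their median difference was -0.05. Both are chains of mature basement membranes. Lama5, the alpha chain of most epithelial and vascular sheets, read 8.4, 8.3, 8.0, 8.1 and 8.2 in mutants and 8.7, 8.3, 8.5, 8.4 and 8.4 in controls. Mutant arrays were mostly the lower ones, with overlap at 8.3 and 8.4. The difference was -0.26 (SE 0.09, interval -0.46 to -0.06, adjusted p = 0.105), and the 2 dimmer probe sets differed by -0.14 and -0.10. Leaving out 1 array at a time gave -0.31 to -0.20, with adjusted p between 0.0808 and 0.223.

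Lamb2, a beta chain prominent at neuromuscular and vascular basement membranes, read 8.8, 8.7, 8.5, 8.4 and 8.8 in mutants and 8.0, 8.4, 8.5, 8.4 and 8.4 in controls. The 3 highest arrays were mutants and the lowest was control replicate 1. The difference was 0.30 (SE 0.11, interval 0.06 to 0.54, adjusted p = 0.109), and 0.21 (interval 0.02 to 0.41, adjusted p = 0.145) without that control. Lamb1, the beta chain of most embryonic laminins, read 11.3, 11.3, 11.5, 11.5 and 11.5 in mutants and 11.1, 11.5, 11.5, 11.4 and 11.6 in controls. Its difference was 0.00 (SE 0.09, interval -0.20 to 0.20), and the 3 dimmer probe sets differed by -0.06 to 0.00.

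Lamc1 encodes the gamma chain of most laminins. It read 9.8, 9.3, 9.2 and 9.8 in mutant replicates 1 to 4 and 9.3, 9.8, 9.8 and 9.8 in control replicates 1 to 4, and replicate 5 was highest in each group, at 10 in both. Mutant replicates 2 and 3 and control replicate 1 were low in an otherwise even set, and the difference was -0.12 (SE 0.17, interval -0.48 to 0.24). Lamc3 differed by -0.10 (interval -0.29 to 0.09) at values of 5.7 to 6.2. Without control replicate 1 the differences were -0.23 (interval -0.57 to 0.11) for Lamc1 and -0.17 (-0.32 to -0.01, limma adjusted p = 0.17) for Lamc3.

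The mesenchymal and vascular alpha chains were likewise uncalled with all arrays. Lama4, the alpha chain of vessel and mesenchymal sheets, read 10.5, 10.4, 10.3, 10.4 and 10.5 in mutants and 9.5, 10.4, 10.4, 10.3 and 10.3 in controls. The other 9 arrays lay within 0.2 of each other and control replicate 1 was 0.8 below the lowest of them, so the difference was 0.24 (interval -0.09 to 0.57) with it and 0.07 (-0.06 to 0.20) without it. Lama2, the alpha chain of muscle and nerve basement membranes, read 8.4 to 8.8 in mutants and 8.0 to 8.9 in controls, a difference of 0.00 (interval -0.33 to 0.33). Without control replicate 1, its lowest array, Lama2 differed by -0.15 (interval -0.36 to 0.06).

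Lama1, the first alpha chain of embryonic basement membranes, read 6.9, 7.0, 7.2, 7.0 and 7.1 in mutants and 6.8, 7.3, 7.5, 7.5 and 7.2 in controls. Control replicate 1 was the lowest array, and the other 4 controls were level with or above every mutant. The difference was -0.22 (adjusted p = 0.289) with that array and -0.34 (interval -0.52 to -0.15, adjusted p = 0.0315) without it. With limma's array weights, which gave control replicate 1 a weight of 0.22 and the others 0.787 to 1.64, it was -0.31 (adjusted p = 0.0459).

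**Figure D4:**
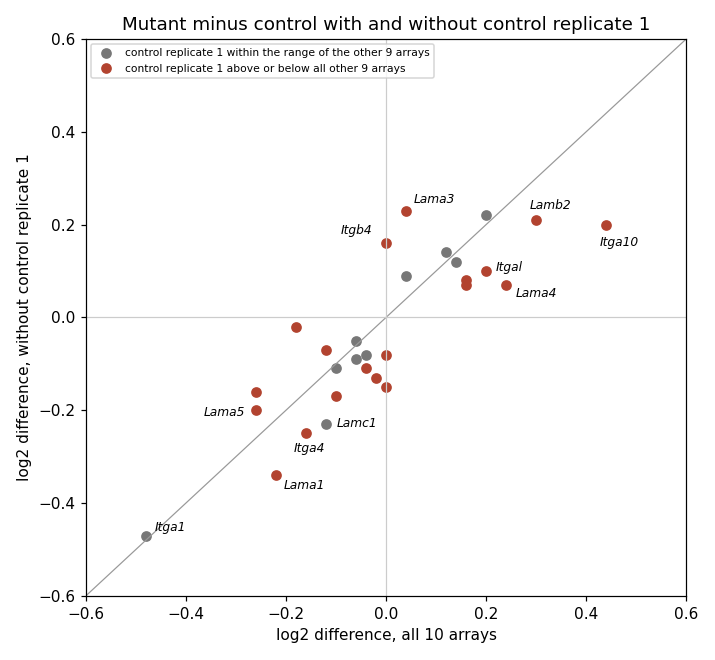
Log2 difference of each chain, mutant minus control, from all 10 arrays (horizontal axis) and without control replicate 1 (vertical axis); red points are the 19 chains for which that array lay above or below all others. Itga1 lies on the diagonal (-0.48 and -0.47), Itga10 and Lama4 move toward 0, and Lama1 and Itga4 move away from it.

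Lama3 and Lamb3 encode chains of the laminin that anchors stratified epithelium and is the ligand of the hemidesmosome receptor. Lama3 read 9.1, 9.4, 9.3, 9.0 and 9.1 in mutants and 9.9, 9.1, 9.0, 8.8 and 8.9 in controls. Apart from control replicate 1, the highest arrays were mutants, and the difference was 0.04 (interval -0.35 to 0.43) with it and 0.23 (0.03 to 0.43, adjusted p = 0.135) without it. Lamb3 read 8.1, 7.9, 7.5, 7.8 and 7.8 in mutants and 8.5, 8.0, 8.1, 7.9 and 7.9 in controls, a difference of -0.26 (interval -0.54 to 0.02, adjusted p = 0.238), or -0.16 (-0.39 to 0.08) without control replicate 1.

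The level of Lama3 followed that of epithelial markers over the arrays, while that of its partner chain Lamb3 did not. The mean log2 level of 12 epithelial markers was 10.42 to 10.75 in mutants, 10.88 in control replicate 1 and 10.25 to 10.60 in the other controls, and none of the 12 was called. Their median difference without control replicate 1 was 0.22 and 2 of the 12 were called, Krt8 (0.72, adjusted p = 0.00492) and Krt18 (0.60, adjusted p = 0.0113), keratins of simple epithelium, both higher, against 3.8% higher over all genes. Trp63 differed in the other direction in that fit and was not called (-0.15, adjusted p = 0.227). Over the 10 arrays Lama3 correlated with the mean marker level at Pearson's r = 0.85 and Spearman's rho = 0.86. Without control replicates 3 and 4, the arrays farthest from the median level, r was 0.84, and without control replicate 1 it was also 0.84. For Itgb4 r was 0.66 and rho 0.52, with r = 0.55 without the farthest arrays and 0.46 without control replicate 1.

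Itga3 and Lamb3 gave r = 0.35 and 0.20 and rho = 0.02 and -0.04, and without control replicate 1 their r was -0.43 and -0.40. Lama5 and Itga6 gave r = -0.06 and -0.22 and rho = -0.26 and -0.35, and without control replicate 1 their r was -0.66 and -0.41. Without the farthest arrays r was 0.45 for Itga3, 0.35 for Lamb3, 0.21 for Lama5 and 0.40 for Itga6. These 6 chains were chosen after the values were seen and each correlation pools both genotypes, so they are given as a description with no test.

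**Figure D5:**
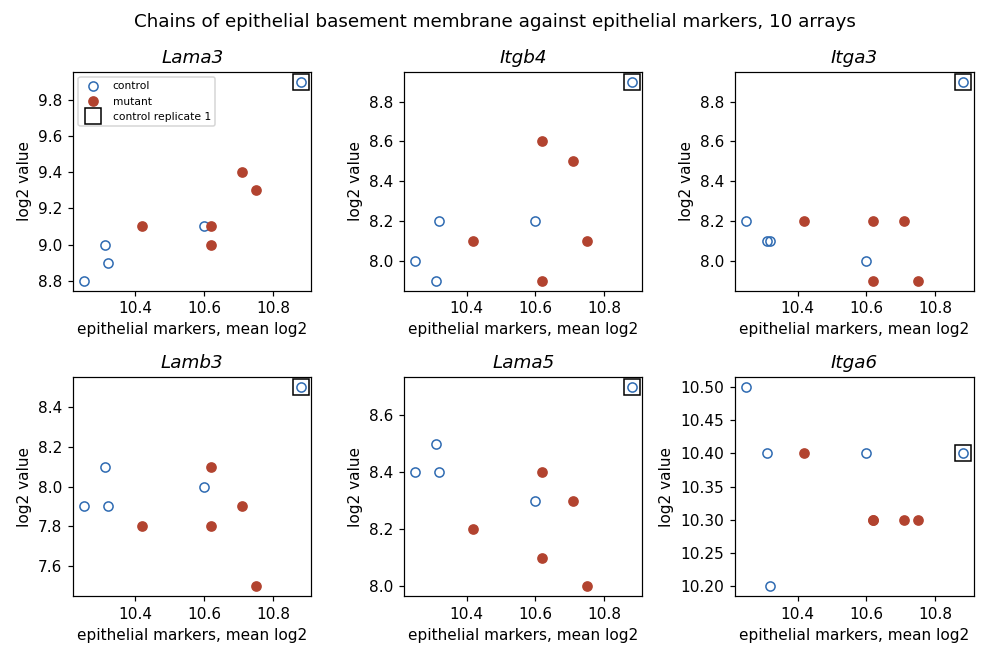
Log2 value of 6 chains, laminin chains of epithelial basement membrane and integrin chains that bind laminin (vertical axes), against the mean log2 level of 12 epithelial markers (horizontal axes) in the 10 arrays. Open circles are controls, filled circles mutants, and the square is control replicate 1. Lama3 is higher where the marker level is higher (r = 0.85), whereas Lamb3 and Itga3 are high in control replicate 1 and show no such order among the other 9 arrays.

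Genes that work with these chains were read from lists of partners. Of 27 measured genes of the integrin adhesion complex, 1 was higher and 1 lower by limma, against 2.90% higher and 5.36% lower over all genes. Pxn, which encodes the focal adhesion adaptor paxillin, rose by 0.26 (10.84 ± 0.05 against 10.58 ± 0.13, SD, n = 5 each; adjusted p = 0.0395). Tln2, a talin that activates integrins by binding beta tails, had a difference of -0.26 (8.50 ± 0.07 against 8.76 ± 0.05, adjusted p = 0.0189). In both genes all mutant arrays lay on 1 side of all controls. Tln2 stayed called with any 1 array left out, at an adjusted p of 0.0207 to 0.0471, whereas Pxn was lost without any 1 of the 5 mutants or without control replicates 2 or 3 (0.0398 to 0.0848 over the 10 omissions). The remaining 25, among them Tln1, Ilk and Vcl, were not called, and the list's median difference was -0.02.

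None of 24 basement membrane and hemidesmosome partners was called by limma. An unadjusted p under 0.05 was found for 7, 29.2% against 25.2% of all genes, and 18 of the 24 had a positive difference, with a median of 0.09. Plec, encoding the plectin that ties the Itgb4 tail to keratin, had the smallest p (0.26, SE 0.08, adjusted p = 0.0573). Dst, encoding the plakin dystonin, had the next smallest p and the opposite sign (-0.34, SE 0.11, adjusted p = 0.0803). Without control replicate 1, Col17a1, the collagen of the hemidesmosome, rose by 0.36 (adjusted p = 0.0245) and Col4a5, a chain of basement membrane collagen, by 0.26 (adjusted p = 0.0411). The epithelial keratins Krt8 and Krt18 were higher in the same fit, as given above, while the epithelial marker Trp63 differed by -0.15 (adjusted p = 0.227). The part of these markers in the Col17a1 difference was not tested.

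Among 14 other integrin ligands, 2 were called lower and none was called higher, 14.3% against 5.36% lower over all genes. The list's median difference was 0.02. Both are ligands on endothelium for leukocyte integrins. Icam2, a ligand of the receptor made of the Itgal and Itgb2 chains, read 7.96 ± 0.09 in mutants and 8.48 ± 0.11 in controls (SD, n = 5 each), a difference of -0.52 (SE 0.07, adjusted p = 0.00191). Madcam1, a ligand of the receptor made of the Itga4 and Itgb7 chains, read 6.34 ± 0.11 and 6.82 ± 0.19, a difference of -0.48 (SE 0.09, adjusted p = 0.0126). All mutant arrays lay below all controls for both genes, both stayed called with any 1 array left out, and without control replicate 1 the differences were -0.52 and -0.46. Icam1 and Vcam1, from the same list, were not called (0.04 and -0.18, adjusted p = 0.77 and 0.141). Of the 10 endothelial markers given beside Itga1, Erg and Cldn5 were lower too and 8 were not called, with a list median of -0.03. The part of these markers in the Icam2 and Madcam1 decreases was not tested.

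Without control replicate 1, Tnc, encoding the Itga9 ligand tenascin C, and the matrix gene Emilin1 were also lower (-0.27 and -0.37, adjusted p = 0.029 and 0.00278). Cdh1, encoding E-cadherin, the ligand of the Itgae receptor, was higher in that fit (0.36, adjusted p = 0.0129), as were Krt8 and Krt18 but not Trp63. Fn1, which encodes fibronectin, differed by 0.00 with all arrays (adjusted p = 1).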

How the data were processed

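The deposited table holds log2 expression values that the authors made by RMA, which corrects background, quantile-normalizes the arrays and summarises each probe set, per the submitters' processing notes; the values carry 1 decimal. No source used here gives the software version, a filter or a batch. Probe sets were named from the platform annotation: 34958 of 45101 carried 1 symbol, 932 several and 9211 none. Symbols were updated by Entrez ID through RefSeq (GRCm38.p6; 34754 found). Promoters come from the same build.

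Mutant minus control was fitted over all 18194 genes with limma 3.58.1 (lmFit and eBayes, R 4.3.3), two-sided, with no filter, adjusted by Benjamini-Hochberg and called under 0.05. On simulated arrays of 18194 genes the fit recovered 8 of 50 genes changed 1.2-fold and 44 of 50 changed 1.5-fold. The changed genes were drawn from all genes, and no outlying array was simulated. The median residual SD was 0.13 over all genes and 0.19 over the members, so recovery may be lower for the members. Members and lists were chosen with earlier results of these data known. Full values are given for called members, members whose arrays separate or that differ 1.5-fold, the brightest member of each role group, and in each partner list up to 3 called genes or the 1 with the smallest p; other genes with values were chosen after these were seen.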

Additional observations from a re-analysis of the deposited data

Results flagged for a closer look

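Of 58 groups of 5 arrays (29 members in mutant and in control), 10 had 1 array far from the other 4 by Dixon's test, which chance gives in about 1 in 20 groups. In 7 of the 10 the array was control replicate 1. It was low for Itga10 (6.7, others 7.7 to 8.0), Itga9 (8.0, others 8.5 to 8.6), Lama4 (9.5, others 10.3 to 10.4), Lamb2 (8.0, others 8.4 to 8.5) and Lamc1 (9.3, others at least 9.8). It was high for Itga3 (8.9, others 8.0 to 8.2) and Lama3 (9.9, others 8.8 to 9.1). Control replicate 3 was low for Itgb2l (5.2, others 5.5). Mutant replicate 2 for Itga2b (7.6, others 7.5) and mutant replicate 5 for Itga6 (10.4, others 10.3) differed by 0.1, the step of the deposited values.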

How the results depend on the processing

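The count of called members was 1 with all arrays, 2 with array weights, 0 with the replicate block, 0 with Eif2s3y as a covariate, and 0 to 3 with 1 array left out. The other 5 alternatives (mean of probe sets, brighter 60% of genes, trend and robust fitting, quantile normalization again, all probe sets together) each called 1. The count over all genes was 1503, 532 with the replicate block, 1042 with the covariate, and 643 to 1798 with 1 array left out. Same-numbered samples did not deviate together (correlations -0.099 to 0.105). With 5 samples per group this gives no sign of pairing by number but cannot exclude it. Itga1 had adjusted p = 0.0661 under the block. The sign turned only in members near 0: with the covariate Itga2 (-0.04), Itga9 (0.09), Itgb1 (0.01), Itgb5 (0.02), Lama3 (-0.11) and Lamc1 (0.08), with quantile normalization Itga9 (0.05), with the mean of probe sets Lamc3 (0.02), and with 1 array left out Itga9 (-0.13 to 0.03) and Lama3 (-0.04 to 0.23). The causes were not tested. The brightness filter kept 19 of 29 members. The number of arrays and the 0.1 step limit precision.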

Other observations

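Markers of glia and palate mesenchyme were read as lists of 6 and 8 genes. None of 6 peripheral glia markers was called by limma, with 1 at an unadjusted p under 0.05 (S100b, adjusted p = 0.0169 without control replicate 1, at a difference of 0.40), and their mean log2 level was highest in control replicate 1, at 7.33 against 6.70 to 7.15 in the other 9 arrays. Of 8 palate mesenchyme markers, 1 was higher, the T-box gene Tbx22 (10.14 ± 0.27 against 9.52 ± 0.20, SD, n = 5 each; adjusted p = 0.0183), a share of 12.5% against 8.26% of all genes. The call was lost without mutant replicate 3 (adjusted p = 0.0505). Msx1, a homeobox gene of palate mesenchyme, had the largest difference of the list, -0.84, and was not called (adjusted p = 0.147).

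Over all 61 probe sets of the 29 chains, 35 had a negative, 22 a positive and 4 no difference, and 1, that of Itga1, was called. The 32 that are not a gene's brightest differed by -0.22 to 0.32, the highest being the dimmer Lama4 probe set (7.62 against 7.30, adjusted p = 0.186).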
